A study of Arabidopsis thaliana with 48 samples.

Results

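N-hydroxypipecolic acid (NHP) is a lysine-derived signal of systemic acquired resistance (SAR), and 5 Arabidopsis thaliana genes are described here that stand for its synthesis, its conjugation and long-distance defence signalling. They were chosen by locus: ALD1 (AT2G13810), SARD4 (AT5G52810), FMO1 (AT1G19250), UGT76B1 (AT3G11340) and DIR1 (AT5G48485). They are 5 of the 32678 gene identifiers counted, and all 5 were among the 21098 genes that were tested because their counts summed to over 100. By the RefSeq annotation ALD1 lies on chromosome 2, FMO1 on chromosome 1, UGT76B1 on chromosome 3, and SARD4 and DIR1 on chromosome 5, each as a protein-coding gene. The annotation gives AT5G52810 no symbol, and the name SARD4 is that of the gene list.

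The libraries came from 2 lines: the myc2-3 mutant, and the complemented line jin1-8 pMYC2::MYC2–FLAG (written myc2-Flag in the labels, MYC2-FLAG here), in which a FLAG-tagged copy of the transcription factor MYC2 is driven by the MYC2 promoter in a myc2 mutant background. Wild-type plants were not analysed here. Plants were grown for 5 weeks in the gnotobiotic FlowPot system with (+BFO) or without (−BFO) a synthetic root microbiota of bacteria, fungi and oomycetes, under low photosynthetically active radiation (LP, labelled Shade) or the normal condition (NC), and shoots and roots were harvested separately. Each of the 16 conditions had 3 libraries, 48 in all, which the study's methods call biological replicates of one experiment, and p-values measure the spread between these libraries. Each line was sequenced as its own project, so line and sequencing project cannot be told apart, whereas the comparisons of BFO and of light were made within a project. The study's methods also report that most reads of several myc2-3 samples mapped to a latent virus, and that myc2-3 was sequenced deeper than MYC2-FLAG. From the clustering of samples they judge that the virus had no significant effect on the plant transcriptome. The part of these reads in any value below was not tested.

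In the known pathway ALD1 removes the amino group of lysine, the reductase SARD4 completes the step to pipecolic acid, and the monooxygenase FMO1 adds the hydroxyl group that makes NHP. The glycosyltransferase UGT76B1 attaches glucose to NHP, and also to salicylic acid and isoleucic acid, which takes the signal out of its active form. DIR1 is a lipid-transfer protein of the long-distance signal. In leaves the pathway is known for priming tissue far from an infection together with salicylic acid, and its genes are activated by the transcription factors SARD1 and CBP60G.

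ALD1 and UGT76B1 went together in roots while FMO1 did not, and the lines differ by design in MYC2. For this reason the 300 bases before the annotated start of these 3 genes are shown. They are read from the RefSeq genome TAIR10.1, 5′ to 3′, at chr2:5768117-5768416 (plus strand) for ALD1, chr3:3556254-3556553 (plus strand) for UGT76B1 and chr1:6653196-6653495 (minus strand) for FMO1. Capitals mark every match, on either strand, to 4 motifs known from Arabidopsis, namely the G-box CACGTG bound by MYC2 and related factors, the W-box core TTGAC of WRKY factors, the core TGACG of TGA factors, and GAAATTT, bound by SARD1 and CBP60G.
ALD1: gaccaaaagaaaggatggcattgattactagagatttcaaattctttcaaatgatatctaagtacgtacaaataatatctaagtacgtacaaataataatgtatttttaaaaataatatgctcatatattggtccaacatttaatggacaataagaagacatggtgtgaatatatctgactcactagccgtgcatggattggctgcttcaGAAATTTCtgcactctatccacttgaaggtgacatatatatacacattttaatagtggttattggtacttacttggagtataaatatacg
UGT76B1: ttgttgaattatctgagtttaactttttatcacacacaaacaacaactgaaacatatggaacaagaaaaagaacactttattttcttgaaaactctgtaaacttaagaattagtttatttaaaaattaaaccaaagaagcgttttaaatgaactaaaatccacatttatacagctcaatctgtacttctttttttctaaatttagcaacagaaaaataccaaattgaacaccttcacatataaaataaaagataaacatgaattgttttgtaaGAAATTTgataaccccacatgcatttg
FMO1: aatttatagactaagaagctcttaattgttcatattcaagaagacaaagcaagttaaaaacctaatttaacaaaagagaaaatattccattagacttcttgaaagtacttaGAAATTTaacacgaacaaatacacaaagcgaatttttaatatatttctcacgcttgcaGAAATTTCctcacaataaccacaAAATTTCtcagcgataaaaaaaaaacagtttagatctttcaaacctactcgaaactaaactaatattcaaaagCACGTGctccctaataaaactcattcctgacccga

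The element GAAATTT was matched 2 times in the ALD1 window, by strands that overlap in 1 place, and once in the UGT76B1 window. It was matched 4 times in the FMO1 window, with 1 overlapping pair. The windows of DIR1 and of SARD4, which followed ALD1 in roots, held no match to it. Of the windows of 300 bases before 27443 protein-coding genes, 14.9% hold it. The G-box, in 7.09% of those windows, was matched in FMO1 only among the 5 genes. The TTGAC core, in 50.4% of windows, was matched in SARD4 (2 times) and DIR1 (1 time), and TGACG, in 21.3%, in none, though a sequence TTGACG would count for both. The SARD4 window reaches into the gene AT5G52800 and is not shown. These matches are a description of letters in a window and were not tested as binding sites.

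Library size was between 5162823 and 11045467 counts in genes, with a median of 7803640. By line the median was 7553227 in myc2-3 and 8217300.5 in MYC2-FLAG, so the deeper sequencing of myc2-3 did not leave it with more counts in genes. MYC2 was called lower in myc2-3 in 8 of 8 comparisons of the lines, with log2 fold changes between −4.92 and −2.16, so this check did not go against the line labels. Summed over 5 shoot markers the level was 24992 to 51138 CPM (normalised counts, scaled to library size) in shoots and 18.1 to 219 CPM in roots. Summed over 5 root markers it was 135 to 707 CPM in shoots and 1946 to 6627 CPM in roots. Most of these root-marker counts belonged to 1 gene, PYK10, with 686122 counts in roots and 57569 in shoots. The next highest were IRT1 in roots (54916 counts) and NRT2.1 in shoots (611 counts). Among the root markers, the root-hair gene EXPA7 was at 0 in 24 of 24 shoot libraries. Compared only with the conditions of its own line and tissue, each of the 48 libraries correlated best with its own condition. This comparison cannot show an exchange of labels between whole conditions. The lowest correlation of a library with its own condition, 0.373, belonged to replicate 2 of myc2-3 shoots under LP −BFO. Calls of the 5 genes that use this library are given with and without it.

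The labels of BFO and of light need a remark before any result is read. Of 1470 genes called for BFO in the roots of both lines under NC, 99.8% went in opposite directions in the lines, and of 1716 such genes under LP it was 97.6%. In shoots the share was 63.7% of 441 genes under LP and 14.6% of 616 genes under NC. Over all tested genes, the mean root profiles of the lines under the same label, each centred on its own line and tissue, correlated at −0.76 (NC −BFO), −0.60 (NC +BFO), −0.50 (LP −BFO) and −0.69 (LP +BFO). The corresponding shoot values were −0.33, 0.59, 0.70 and −0.67, and the negative ones belong to NC −BFO and LP +BFO, the shoot conditions in which members were called between the lines. Of genes called for light in both lines, 67.7% of 637 went in opposite directions in shoots with BFO and 45.2% of 706 in shoots without, and in roots 90.5% of 63 with BFO and 69.5% of 203 without.

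Markers of light did not follow the light labels in all shoots. The summed low-light and starvation markers (ASN1, SEN1 and DIN10) are genes known to be raised in the dark. In myc2-3 they were at 2028 to 2865 CPM under LP −BFO and 992 to 1294 CPM under NC −BFO, in the direction of the labels, and at 3756 to 4964 CPM under LP +BFO and 5115 to 6590 CPM under NC +BFO, where none was called. In MYC2-FLAG they were at 1100 to 1400 CPM under LP +BFO and 6413 to 7718 CPM under NC +BFO, and at 1031 to 1241 CPM under LP −BFO and 7685 to 9270 CPM under NC −BFO, both against the labels LP and NC. Of 4 strong-light markers, 3 were called lower under LP in myc2-3 shoots with and without BFO and 1 in MYC2-FLAG shoots without BFO, but 3 were called higher under LP in MYC2-FLAG shoots with BFO. In roots the summed low-light and starvation markers went against the labels in myc2-3 −BFO (817 to 904 CPM under LP, 1581 to 2382 CPM under NC). In the other root groups LP and NC overlapped, at 344 to 711 and 483 to 649 CPM in myc2-3 +BFO. In MYC2-FLAG roots they were at 1922 to 2257 and 2182 to 2270 CPM with BFO, and 338 to 632 and 484 to 535 CPM without. Whether line effects on these responses or a difference in how samples were labelled lies behind this cannot be told apart here. Groups are named by their labels throughout, and every result on line, BFO or light below, in roots and in shoots, has to be read with these values.

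A gene is called higher or lower where the log2 fold change was at least 1 in size and the adjusted p under 0.05 in the quasi-likelihood test of edgeR, adjusted by the Benjamini-Hochberg method over all 21098 tested genes. Errors of log2 fold changes are standard errors (SE) from that fit. Levels are CPM scaled by TMM, with the SD over n = 3 libraries. Where all 3 libraries of a group were at 0, a limit of 3 counts over that group was used and the fold is a bound. Such a bound, written as at least, takes the mean of the higher group as measured and leaves out its spread. Comparisons of the lines, of BFO and of light draw on the same 48 libraries, so their calls are not independent of each other. Statements that libraries did or did not overlap describe the libraries compared. No share of all tested genes without overlap is given beside them. In these bulk tissues a change in the share of cells that express a gene and a change in RNA per cell cannot be told apart.

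ALD1, FMO1 and UGT76B1 were mostly root transcripts in these plants, DIR1 was mostly a shoot transcript, and SARD4 was read in both. ALD1 had 79 counts in all 24 shoot libraries together and 2811 in the 24 root libraries, and 11 shoot libraries were at 0. FMO1 had 98 counts in shoots, where 10 libraries were at 0, and 3013 in roots. UGT76B1 had 378 counts in shoots, with 3 libraries at 0, and 44237 in roots. No root library was at 0 for these 3 genes. SARD4 was read in every library, with 1284 counts in shoots and 2882 in roots. DIR1 had the opposite distribution, with 5259 counts in shoots and 696 in roots, where 1 library was at 0.

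Shoots against roots, averaged over the 4 conditions of a line, 4 of 5 members were called in both lines, 3 of them lower and 1 higher in shoots. Of all tested genes 25.3% were called lower and 22.8% higher in myc2-3, and 24.4% lower and 21.4% higher in MYC2-FLAG, so calls as such were common. The median over all tested genes was −0.13 in myc2-3 and −0.14 in MYC2-FLAG on the log2 scale. Log2 fold changes in myc2-3 and MYC2-FLAG were −4.69 ± 0.43 and −5.53 ± 0.51 for ALD1, −5.05 ± 0.34 and −6.24 ± 0.35 for FMO1, and −5.94 ± 0.18 and −6.96 ± 0.19 for UGT76B1 (SE). DIR1 was higher in shoots by 3.74 ± 0.16 and 3.89 ± 0.17, and SARD4 was not called (−0.09 ± 0.14 and −0.42 ± 0.14). The ALD1 and FMO1 values depend on the prior count, since 1 shoot group at 0 enters each. Without the library that stood apart the myc2-3 values were −6.21 for ALD1, −6.23 for FMO1, −6.28 for UGT76B1 and 3.75 for DIR1, all called. The shoot and root libraries did not overlap for FMO1, UGT76B1 and DIR1 in either line. The labels do not say whether shoots and roots came from the same plants, and the test treated these libraries as independent. Per kilobase of exon, UGT76B1 had the highest level of the 5 in roots, up to 231 CPM per kb in MYC2-FLAG under LP −BFO, where ALD1 was at 9.51, SARD4 at 13.2, FMO1 at 6.37 and DIR1 at 0.689 CPM per kb. In shoots DIR1 led, with 25.9 to 55.1 CPM per kb over the 8 conditions.

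**Figure D1:**
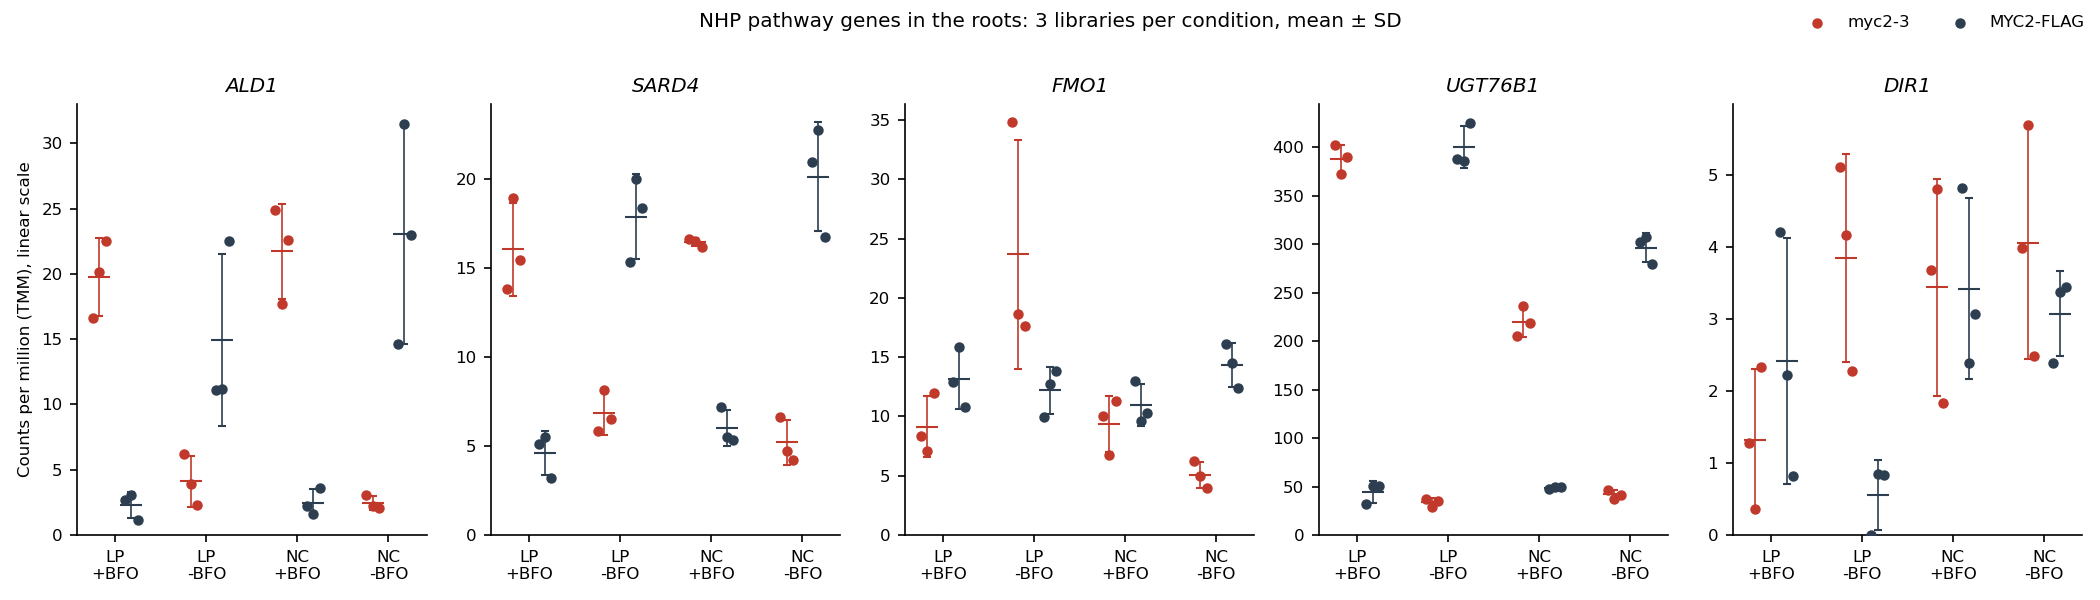
Levels of the 5 NHP pathway genes in roots, in TMM-scaled CPM on a linear axis from 0, for both light conditions and BFO states. Points are the 3 libraries of a condition, with myc2-3 left of MYC2-FLAG, and bars give mean ± SD. For ALD1, SARD4 and UGT76B1 the myc2-3 +BFO and the MYC2-FLAG −BFO libraries are high and the other 6 of each light condition are low.

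In roots the first enzyme and the glycosyltransferase moved in opposite directions in the lines. ALD1, the aminotransferase of the first step, had 24.9, 17.7 and 22.6 CPM in myc2-3 roots under NC +BFO, against 3.10, 2.25 and 2.06 CPM in myc2-3 roots under NC −BFO. In MYC2-FLAG roots under NC it had 2.26, 1.59 and 3.60 CPM with BFO, against 14.7, 31.5 and 23.0 CPM without BFO. Thus the 3 +BFO libraries were all high in myc2-3 and all low in MYC2-FLAG, without overlap with the −BFO libraries of the same line. The log2 fold change of +BFO against −BFO was 3.14 ± 0.40 in myc2-3 (adjusted p = 8.75e-08) and −3.21 ± 0.39 in MYC2-FLAG (adjusted p = 2.32e-08). The difference between these responses was 6.35 ± 0.56 (adjusted p = 4.31e-12).

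Under LP the order was the same. ALD1 had 16.6, 20.1 and 22.6 CPM in myc2-3 roots with BFO, against 6.17, 3.91 and 2.28 CPM without. In MYC2-FLAG roots it had 2.66, 3.05 and 1.19 CPM with BFO, against 11.1, 11.2 and 22.5 CPM without. Neither line overlapped between BFO states. ALD1 rose by 2.32 ± 0.37 in myc2-3 and fell by 2.74 ± 0.42 in MYC2-FLAG on the log2 scale, with a difference between the responses of 5.06 ± 0.56 (adjusted p = 1.03e-09).

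SARD4, the reductase of the pipecolic acid step, followed ALD1 with smaller changes. Under NC it had 16.6, 16.5 and 16.2 CPM in myc2-3 +BFO roots, against 6.65, 4.74 and 4.22 CPM in myc2-3 −BFO roots. The MYC2-FLAG roots under NC had 7.18, 5.49 and 5.35 CPM with BFO, against 20.9, 22.7 and 16.7 CPM without. Both lines were separated by BFO without overlap, in opposite directions. The log2 fold changes for BFO were 1.67 ± 0.25 in myc2-3 and −1.76 ± 0.24 in MYC2-FLAG, and their difference was 3.42 ± 0.35 (adjusted p = 1.38e-10).

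Under LP, SARD4 averaged 16.1 ± 2.61 CPM in myc2-3 +BFO roots and 6.84 ± 1.202 CPM in myc2-3 −BFO roots (SD, n = 3 each). In MYC2-FLAG roots it averaged 4.60 ± 1.24 CPM with BFO and 17.9 ± 2.37 CPM without (SD, n = 3 each). These groups did not overlap either, and the log2 fold changes were 1.22 ± 0.25 in myc2-3 and −1.98 ± 0.26 in MYC2-FLAG, with a difference of 3.20 ± 0.36 (adjusted p = 8.36e-10). Against a null of 2-fold change (glmTreat) the calls of SARD4 for BFO in myc2-3 roots under LP, and between the lines under NC +BFO and LP −BFO, were lost.

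UGT76B1, which conjugates NHP with glucose and whose window above holds 1 GAAATTT match, had the largest counts of the 5 in roots. Under LP it had 402, 372 and 389 CPM in myc2-3 +BFO roots, against 37.4, 29.3 and 34.9 CPM in myc2-3 −BFO roots. In MYC2-FLAG roots under LP the values were 31.5, 50.1 and 51.0 CPM with BFO, against 388, 386 and 425 CPM without. The high groups of the lines lay close together (372 to 402 CPM in myc2-3 +BFO and 386 to 425 CPM in MYC2-FLAG −BFO), and so did the low groups. The response to BFO was 3.52 ± 0.24 in myc2-3 (adjusted p = 9.79e-16) and −3.17 ± 0.23 in MYC2-FLAG (adjusted p = 9.44e-15), a difference of 6.69 ± 0.33 (adjusted p = 1.04e-20).

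Under NC, UGT76B1 had 205, 237 and 218 CPM in myc2-3 +BFO roots, against 46.5, 37.5 and 41.8 CPM in myc2-3 −BFO roots. The MYC2-FLAG roots under NC had 47.2, 49.2 and 50.0 CPM with BFO, against 302, 307 and 279 CPM without. BFO separated both lines here too. The log2 fold changes were 2.39 ± 0.23 in myc2-3 and −2.60 ± 0.23 in MYC2-FLAG, and the difference between the responses was 4.99 ± 0.32 (adjusted p = 6.5e-17). In myc2-3 roots the response was larger under LP than under NC by 1.13 ± 0.31 (adjusted p = 0.00554), where 12.9% of all genes were called for such a difference. This call was lost in DESeq2 (log2 1.13, adjusted p = 0.0529).

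**Figure D2:**
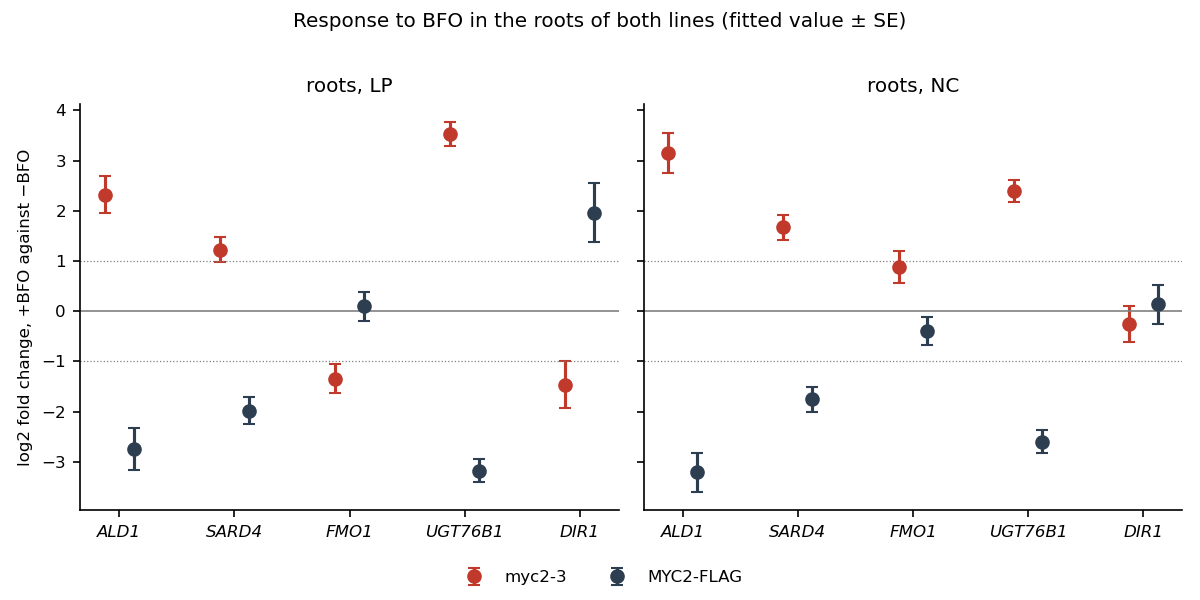
Response to BFO in roots, as fitted log2 fold change of +BFO against −BFO ± SE, for each gene in myc2-3 (left point) and MYC2-FLAG (right point) under LP and NC. Dotted lines mark the 2-fold limits of a call. ALD1, SARD4 and UGT76B1 lie above 1 in myc2-3 and below −1 in MYC2-FLAG under both light conditions, between 3.52 and −3.21.

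FMO1, the monooxygenase that makes NHP, took another course in roots than ALD1, although some root comparisons were called for both genes. In myc2-3 roots under LP −BFO it had 34.8, 18.6 and 17.6 CPM, against 6.20, 4.98 and 4.004 CPM in myc2-3 roots under NC −BFO. All 3 LP libraries were above all 3 NC libraries, with replicate 1 the highest, and the log2 fold change was 2.21 ± 0.30 (adjusted p = 1.3e-06). With BFO, myc2-3 roots had 8.32, 7.11 and 12.0 CPM under LP, against 10.1, 6.72 and 11.3 CPM under NC, values that overlapped (log2 −0.02 ± 0.31). The response of FMO1 to BFO was therefore −1.35 ± 0.29 under LP (adjusted p = 0.000188) and 0.88 ± 0.32 under NC, which did not reach the 2-fold limit, and LP and NC differed by −2.23 ± 0.43 (adjusted p = 0.000149). The response under NC was a call without replicate 2 of the +BFO group (1.07) or replicate 1 of the −BFO group (1.04). Without replicate 1 of myc2-3 LP −BFO roots the response under LP was −0.98 and no longer a call. Summed root markers, in which PYK10 had most of the counts over all root libraries, were also high in these LP −BFO libraries. They were at 6193 to 6627 CPM, against 2443 to 2936 CPM in myc2-3 roots under NC −BFO. The sum does not show how the other root markers went, and the part of root markers in the FMO1 values was not tested.

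In MYC2-FLAG roots FMO1 had 12.9, 15.8 and 10.8 CPM under LP +BFO and 9.99, 12.8 and 13.8 CPM under LP −BFO. Under NC the values were 13.0, 9.65 and 10.3 CPM with BFO and 16.1, 14.5 and 12.4 CPM without. The BFO states overlapped in both light conditions, with log2 fold changes of 0.10 ± 0.28 and −0.40 ± 0.28. Between the lines FMO1 was lower in myc2-3 under NC −BFO by 1.51 on the log2 scale (SE 0.31, adjusted p = 0.000189). Under LP −BFO the lines did not overlap, but the log2 fold change of 0.93 ± 0.27 missed the 2-fold limit, which it passed without replicate 3 of MYC2-FLAG (1.03) or replicate 2 (1.08) or 3 (1.11) of myc2-3. The response to BFO differed between the lines by 1.28 ± 0.43 under NC (adjusted p = 0.013) and by −1.44 ± 0.40 under LP (adjusted p = 0.00261).

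DIR1, the lipid-transfer protein, had few counts in roots and moved under LP. In myc2-3 roots under LP it had 10, 3 and 21 counts with BFO, against 44, 49 and 29 without. In MYC2-FLAG roots under LP it had 38, 19 and 9 counts with BFO, against 0, 9 and 9 without. Most +BFO libraries were low in myc2-3 and high in MYC2-FLAG, but scaled to library size the BFO states overlapped in both lines. The fitted response was −1.46 ± 0.47 in myc2-3 (adjusted p = 0.0101) and 1.96 ± 0.59 in MYC2-FLAG (adjusted p = 0.00619), with a difference of −3.42 ± 0.75 (adjusted p = 0.000177). The call in myc2-3 was lost without replicate 2 of the LP +BFO roots (log2 −1.02, adjusted p = 0.0938) or replicate 1 of the LP −BFO roots (−1.23, adjusted p = 0.0507), and that in MYC2-FLAG without replicate 1 of the LP +BFO roots (1.27, adjusted p = 0.126).

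Under NC, DIR1 in roots had 18 to 71 counts per library and no difference between lines or BFO states was called. The low MYC2-FLAG LP −BFO group of 0.560 ± 0.485 CPM lay below 3.86 ± 1.45 CPM in myc2-3 under the same condition (SD, n = 3 each), a log2 fold change of 2.63 ± 0.53 (adjusted p = 8.12e-05). It also lay below MYC2-FLAG roots under NC −BFO, at 3.08 ± 0.590 CPM, with −2.35 ± 0.54 for LP against NC (adjusted p = 0.00241). Under LP +BFO the lines overlapped and were not called (−0.79 ± 0.52), except without replicate 3 of MYC2-FLAG (−1.25, adjusted p = 0.0497). In these MYC2-FLAG LP −BFO root libraries the summed shoot markers were the highest of all root groups, at 158 to 219 CPM, while DIR1, a gene read more in shoots, was lowest. AT5G48490, the gene next to DIR1 and of the same protein family, had 6 counts over all 24 root libraries, and the longest stretch of exon sequence that is identical between the 2 genes is 20 bases.

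Between the lines, these root values gave 3 members called higher in myc2-3 under LP +BFO (ALD1, SARD4 and UGT76B1) and the same 3 under NC +BFO, where 14.6% and 12.0% of all tested genes were called in either direction. ALD1 was higher by 3.14 ± 0.42 under LP and 3.12 ± 0.39 under NC, UGT76B1 by 3.13 ± 0.23 and 2.17 ± 0.22, and SARD4 by 1.82 ± 0.27 and 1.46 ± 0.25. Without BFO these 3 genes were lower in myc2-3, with log2 fold changes of −1.92 ± 0.38 (LP) and −3.24 ± 0.40 (NC) for ALD1, −3.56 ± 0.24 and −2.82 ± 0.23 for UGT76B1, and −1.38 ± 0.24 and −1.97 ± 0.25 for SARD4. Including FMO1 and DIR1, 4 of 5 members were called under LP −BFO and 4 of 5 under NC −BFO, where 17.4% and 11.3% of all genes were called. The corresponding background for +BFO against −BFO in roots was 16.6% (LP) and 9.20% (NC) in myc2-3, with 5 and 3 members called, and 15.9% and 12.3% in MYC2-FLAG, with 4 and 3 members called. For the difference between the lines in the response to BFO it was 34.1% under LP, with 5 members called, and 25.2% under NC, with 4. The 24 root calls of ALD1, SARD4 and UGT76B1 for line or BFO were all kept when any single library was left out.

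Light alone gave fewer calls of members in roots than line or BFO, and fewer of all tested genes were called for it. Of 20 tests over the 4 light comparisons, 3 were called: FMO1 in myc2-3 −BFO roots (background 5.03%), DIR1 in MYC2-FLAG −BFO roots (4.49%) and DIR1 in myc2-3 +BFO roots (4.04%). None was called in MYC2-FLAG +BFO roots, where 1.18% of genes were, and no member had an unadjusted p under 0.05 there. The DIR1 call in myc2-3 +BFO roots (−1.36 ± 0.47, adjusted p = 0.0489) was lost under 7 of 9 alternative settings and without any one of 4 libraries, namely replicates 1 and 2 of either light condition, with log2 fold changes between −1.32 and −0.92, and it stood at −2.09 without replicate 3 of the LP group. UGT76B1 in myc2-3 +BFO roots was higher under LP by 0.82 ± 0.21 (adjusted p = 0.00671) without overlap, short of the 2-fold limit. ALD1 and SARD4 had log2 fold changes between −0.63 and 0.69 in all 4 comparisons, and none was called, except ALD1 in MYC2-FLAG −BFO roots without replicate 3 of the LP group (−1.06, adjusted p = 0.0387).

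**Figure D3:**
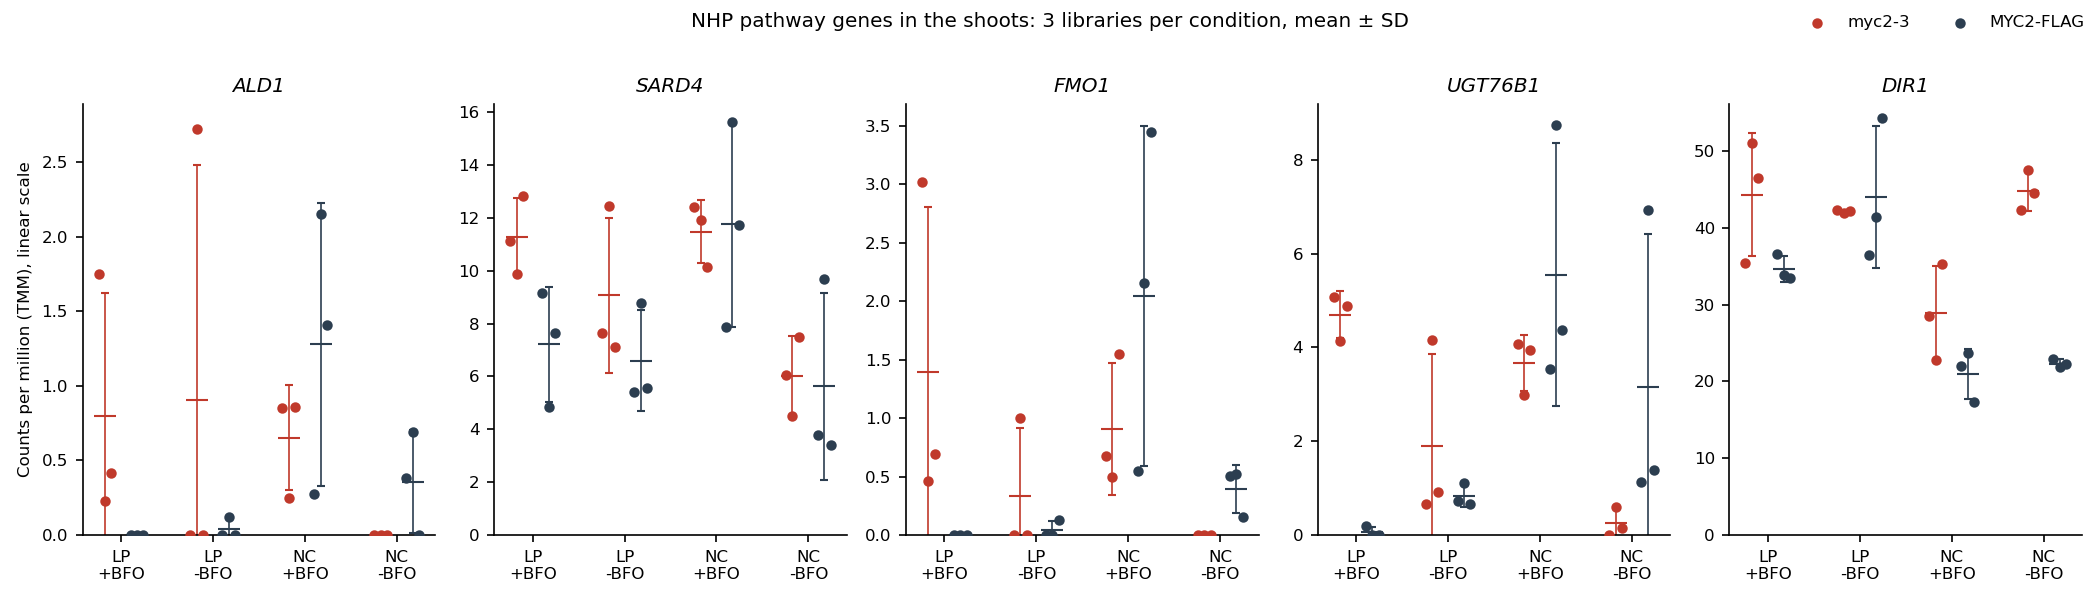
Levels of the 5 NHP pathway genes in shoots, in TMM-scaled CPM on a linear axis from 0, laid out as for roots with myc2-3 left of MYC2-FLAG. Points are libraries and bars give mean ± SD. ALD1 and FMO1 are at 0 in all 3 libraries of MYC2-FLAG under LP +BFO and of myc2-3 under NC −BFO, and DIR1 is between 17.4 and 54.3 CPM throughout.

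In shoots ALD1, FMO1 and UGT76B1 were close to the limit of detection, and the differences between conditions are differences between very few and few counts. Under LP +BFO, FMO1 had 19, 2 and 5 counts in myc2-3 shoots, against 0, 0 and 0 in MYC2-FLAG shoots. ALD1 had 11, 1 and 3 counts in myc2-3 shoots, against 0, 0 and 0 in MYC2-FLAG shoots. UGT76B1 had 32, 18 and 35 counts in myc2-3 shoots, against 1, 0 and 0 in MYC2-FLAG shoots. For all 3 genes every myc2-3 library lay above every MYC2-FLAG library, although replicate 1 carried most of the FMO1 and ALD1 counts.

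FMO1 was thus at least 7.76-fold higher in myc2-3 shoots under LP +BFO (adjusted p = 0.00357). Without replicate 1 of myc2-3 the bound was 3.23 and the call was lost (adjusted p = 0.0616), and without replicate 2 or replicate 3 of MYC2-FLAG it was 5.17 or 4.97. For UGT76B1 the pooled counts of 85 and 1 gave a ratio of 79.8 after scaling to library size (exact 95% counting interval 13.9 to 3190), and the test gave an adjusted p of 1.21e-06. For ALD1 the bound was 4.45 and the adjusted p of 0.0576 did not pass. That bound was 1.81 without replicate 1 of myc2-3 and 2.97 or 2.85 without replicate 2 or 3 of MYC2-FLAG, whereas without replicate 2 or 3 of myc2-3 ALD1 was called (adjusted p = 0.0499 and 0.0485), as it was in DESeq2 (0.00369) and in the legacy fit of edgeR (0.0399). With FMO1 and UGT76B1, 2 of 5 members were called here, where 19.3% of all tested genes were called. SARD4 (11.1, 9.89 and 12.8 CPM in myc2-3 and 9.15, 4.83 and 7.65 CPM in MYC2-FLAG) did not overlap but had a log2 fold change of 0.67 ± 0.29, and DIR1 overlapped. The summed low-light and starvation markers were at 3756 to 4964 CPM in these myc2-3 shoots and 1100 to 1400 CPM in these MYC2-FLAG shoots, and their part in the NHP values was not tested.

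Under NC −BFO the order of the lines was the other way round. UGT76B1 had 0, 3 and 1 counts in myc2-3 shoots, against 9, 40 and 9 in MYC2-FLAG shoots. ALD1 had 0, 0 and 0 counts in myc2-3 shoots, against 3, 4 and 0 in MYC2-FLAG shoots. FMO1 had 0, 0 and 0 counts in myc2-3 shoots, against 4, 3 and 1 in MYC2-FLAG shoots. Only UGT76B1 was called, with a log2 fold change of −3.65 ± 0.81 (adjusted p = 0.000272) that was −2.43 without replicate 2 of MYC2-FLAG, which held most of the counts. The bounds for ALD1 and FMO1 were 2.17-fold and 2.39-fold lower in myc2-3, but neither was called in edgeR (adjusted p = 0.231 and 0.121). Each of these bounds dropped to between 1.37 and 1.55 without replicate 1 or 3 of myc2-3, and that of ALD1 was 3.26 without replicate 3 of MYC2-FLAG. In DESeq2 both differences were called (adjusted p = 0.045 for ALD1 and 0.0185 for FMO1). The low-light and starvation markers were at 992 to 1294 CPM in these myc2-3 shoots and 7685 to 9270 CPM in these MYC2-FLAG shoots, and again their part was not tested.

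DIR1 was the only member called higher in myc2-3 shoots under NC −BFO. It had 42.4, 47.6 and 44.5 CPM in myc2-3, against 22.9, 21.8 and 22.2 CPM in MYC2-FLAG. The lines did not overlap, with little spread within each. The log2 fold change of 1.00 ± 0.26 (adjusted p = 0.00158) sat on the limit of a call, so that leaving out replicate 2 or 3 of MYC2-FLAG or replicate 2 of myc2-3 ended the call, the lowest value being 0.96, and so did limma-voom and the fit with the replicate block. With UGT76B1, 2 of 5 members were called under NC −BFO, where 16.4% of all genes were. No member was called between the lines under NC +BFO or LP −BFO, where 3.86% and 3.64% of genes were called. There, log2 fold changes were between −1.05 and 0.47 under NC +BFO, and unadjusted p was above 0.05 for every member. Under LP −BFO, the 1 member with an unadjusted p under 0.05 was ALD1, with 19 counts in replicate 2 of myc2-3 and 0 in the others, against 0, 1 and 0 in MYC2-FLAG, and DESeq2 called it (adjusted p = 0.0216).

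In shoots under NC, 2 NHP genes were called higher with BFO in each line, FMO1 in both. FMO1 had 4, 2 and 9 counts in myc2-3 shoots under NC +BFO, against 0, 0 and 0 under NC −BFO. In MYC2-FLAG shoots under NC it had 4, 15 and 22 counts with BFO, against 4, 3 and 1 without. The +BFO libraries were the higher ones in both lines. FMO1 was at least 5.52-fold higher with BFO in myc2-3 (adjusted p = 0.0208), and in MYC2-FLAG the log2 fold change was 2.28 ± 0.81 (adjusted p = 0.0333). Both calls were fragile. The first was lost without replicate 1 or 3 of myc2-3 −BFO or replicate 3 of myc2-3 +BFO, when the bound was 3.48, 3.58 and 3.57, and the second was lost without any one of 5 of its 6 libraries (log2 1.71 to 2.55, adjusted p up to 0.211).

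UGT76B1 had 24, 12 and 23 counts in myc2-3 shoots under NC +BFO, against 0, 3 and 1 under NC −BFO. In MYC2-FLAG shoots under NC it had 26, 61 and 28 counts with BFO, against 9, 40 and 9 without. The BFO states were well apart in myc2-3 and overlapped in MYC2-FLAG. The log2 fold changes were 3.996 ± 0.79 (adjusted p = 7.3e-05) and 0.92 ± 0.40 (adjusted p = 0.0904), and the responses differed by 3.08 ± 0.97 (adjusted p = 0.0182), a kind of difference called for 11.1% of all genes. The response in MYC2-FLAG was called without replicate 2 of −BFO (2.14) or replicate 1 of +BFO (1.17). That difference was lost without replicate 2 of MYC2-FLAG −BFO (1.86), or replicate 1 (2.45) or 3 (2.88) of myc2-3 −BFO.

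SARD4 averaged 11.5 ± 1.18 CPM in myc2-3 shoots under NC +BFO and 6.03 ± 1.49 CPM under NC −BFO, a log2 fold change of 0.91 ± 0.30 that missed the 2-fold limit (SD, n = 3 each) and passed it without replicate 3 of −BFO (1.09). In MYC2-FLAG shoots it had 7.89, 15.6 and 11.7 CPM with BFO, against 3.80, 9.70 and 3.39 CPM without, and 1.10 ± 0.29 was called (adjusted p = 0.00394) although the libraries overlapped. Leaving out replicate 1 or 3 of −BFO or replicate 2 of +BFO took it to 0.86 to 0.88, and leaving out replicate 2 of −BFO took it to 1.69. ALD1 had 5, 1 and 5 counts in myc2-3 +BFO shoots under NC, against 0, 0 and 0 without BFO, at least 3.97-fold higher but with an adjusted p of 0.0992 (0.00742 and called in DESeq2). That bound was 2.50 or 2.57 without replicate 1 or 3 of the −BFO group. DIR1 was not called for BFO in any shoot comparison, with log2 fold changes between −0.62 and 0.07. Under NC, 2 members were called higher in myc2-3 (background 14.3%) and 2 in MYC2-FLAG (6.18%).

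Under LP the response of the shoots to BFO depended on few libraries. UGT76B1 had 32, 18 and 35 counts in myc2-3 shoots with BFO, against 4, 29 and 5 without. Replicate 2 of the −BFO group is the library that stood apart, and it overlapped with the +BFO values. The log2 fold change of 1.23 ± 0.46 (adjusted p = 0.0456) was 2.59 (adjusted p = 0.00145) without it, and was no longer called without any one of the other 5 libraries (0.82 to 1.29, adjusted p 0.0595 to 0.237) or under 4 of 9 alternative settings. In MYC2-FLAG shoots UGT76B1 had 1, 0 and 0 counts with BFO, against 4, 9 and 5 without, a pooled ratio of 0.0706 (interval 0.0017 to 0.447) with an adjusted p of 0.0517. The responses of the lines differed by 4.75 ± 1.44 (adjusted p = 0.00923), where 15.8% of all genes were called, and by 6.11 without the library that stood apart. FMO1 in myc2-3 had 26 counts with BFO and 7 without, all 7 in the library that stood apart, and was not called with all libraries in edgeR (adjusted p = 0.13). It was called without that library (adjusted p = 0.0205), and in DESeq2 with all libraries (log2 1.88, adjusted p = 0.0333). UGT76B1 was the 1 member called in myc2-3 under LP, where 7.39% of genes were called. None was called in MYC2-FLAG under LP, where 9.68% of genes were, 1 member had an unadjusted p under 0.05, and DESeq2, limma-voom and the fit with the replicate block (−3.47, adjusted p = 0.0273) each called 1, in all cases UGT76B1.

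The response of shoots to BFO differed between LP and NC for 1 member in MYC2-FLAG, UGT76B1 at −4.44 ± 1.43 (adjusted p = 0.0135), where 17.5% of all genes were called. This call was lost without replicate 2 of the LP −BFO group (−4.14, adjusted p = 0.0503) and was −6.75 without replicate 1 of the LP +BFO group. SARD4 in the same line missed it at −1.003 ± 0.42 (adjusted p = 0.0622), and passed without replicate 1 of LP +BFO (−1.196), replicate 2 of NC −BFO (−1.59) or replicate 1 of NC +BFO (−1.23). In myc2-3 shoots, where 6.72% of genes were called, edgeR called none of the 5, with 1 of them, UGT76B1, at an unadjusted p under 0.05 (−2.77 ± 1.02, adjusted p = 0.0598). UGT76B1 was called there by DESeq2, together with ALD1, and in the fit with the replicate block (−2.64, adjusted p = 0.0404), and limma-voom called none. It was also called without replicate 2 of NC −BFO (−4.14), or replicate 1 (−3.18) or 3 (−3.07) of LP −BFO, and it was −1.40 (adjusted p = 0.515) without replicate 2 of LP −BFO, the library that stood apart. In MYC2-FLAG roots, with a background of 6.70%, edgeR and limma-voom called no member and DESeq2 called DIR1, the 1 member with an unadjusted p under 0.05 in edgeR (1.82 ± 0.71, adjusted p = 0.0741). DIR1 was called there without replicate 3 of LP +BFO (2.29) or replicate 1 of NC +BFO (2.13).

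**Figure D4:**
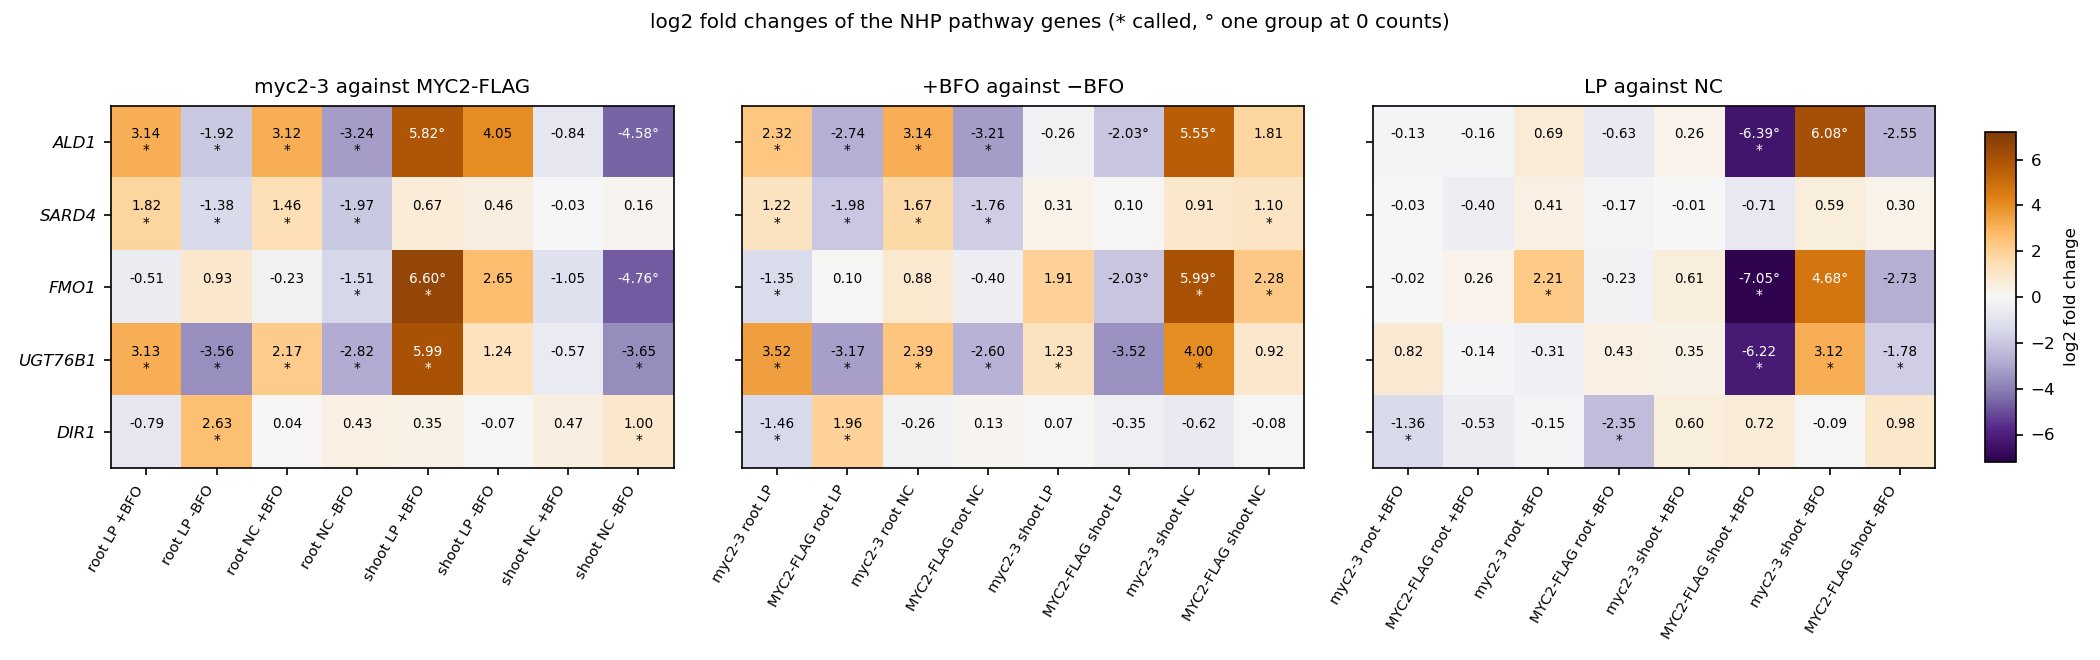
Log2 fold changes of the 5 genes in the 24 comparisons of lines, BFO states and light conditions, as colour and number, with a star for a call and a degree sign where 1 of the groups was at 0 in all 3 libraries. Values with a degree sign depend on the prior count of the fit and are no measure of size. Root columns of ALD1, SARD4 and UGT76B1 alternate in sign with BFO and line, and in shoots the called values without a degree sign lie between −6.22 and 5.99, both of UGT76B1 with 1 count in MYC2-FLAG under LP +BFO.

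Of the 5 calls for light in shoots, 3 lay in MYC2-FLAG shoots with BFO. FMO1 had 0, 0 and 0 counts there under LP, against 4, 15 and 22 under NC. ALD1 had 0, 0 and 0 counts under LP, against 2, 15 and 9 under NC. UGT76B1 had 1, 0 and 0 counts under LP, against 26, 61 and 28 under NC. For each gene all LP libraries were below all NC libraries. FMO1 was at least 11.4-fold lower under LP (adjusted p = 0.000733) and ALD1 at least 7.13-fold lower (adjusted p = 0.0193). For UGT76B1 the pooled ratio of LP to NC was 0.0108 (exact 95% counting interval 0.00027 to 0.0612, adjusted p = 2.17e-07).

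Of 5 members, 3 were called lower in that comparison, where 18.8% of all genes were called in either direction. The bound of FMO1 was 7.61 and 7.31 without replicate 2 or 3 of the LP group and 7.52 without replicate 3 of the NC group. ALD1 lost its call without replicate 2 or 3 of the LP group (bounds of 4.75 and 4.57) or replicate 2 of the NC group (4.69). SARD4 was lower by 0.71 ± 0.29 (adjusted p = 0.0402) and DIR1 higher by 0.72 ± 0.26 (adjusted p = 0.0233), both short of the 2-fold limit. All 3 low-light and starvation markers (ASN1, SEN1 and DIN10) were called lower under LP in these MYC2-FLAG shoots, with a median of −2.63 on the log2 scale, and 3 of 4 strong-light markers were called higher, so both lists went against the light labels on which these 3 calls rest. Their part in the NHP values was not tested.

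In myc2-3 shoots with BFO no NHP gene was called for light. FMO1 had 19, 2 and 5 counts under LP and 4, 2 and 9 under NC, ALD1 had 11, 1 and 3 and 5, 1 and 5, and UGT76B1 had 32, 18 and 35 and 24, 12 and 23. FMO1 and ALD1 overlapped between the light conditions, and log2 fold changes were 0.61 ± 0.78, 0.26 ± 1.11 and 0.35 ± 0.42. DIR1 had 35.4, 51.1 and 46.5 CPM under LP, against 28.5, 22.8 and 35.2 CPM under NC, without overlap but short of a call (0.60 ± 0.26, adjusted p = 0.0736). No member was called there by edgeR, DESeq2 or limma-voom, DIR1 was the 1 member with an unadjusted p under 0.05, and the background was 7.60%. Without BFO, UGT76B1 in myc2-3 had 4, 29 and 5 counts under LP, against 0, 3 and 1 under NC, and 3.12 ± 0.88 was called (adjusted p = 0.00689, background 7.19%). It was 1.75 (adjusted p = 0.278) without the library that stood apart and 2.48 (adjusted p = 0.0527) without replicate 1 of the NC group. ALD1 and FMO1 were at 0 under NC there and had counts under LP only in the library that stood apart, and neither was called in edgeR (adjusted p = 0.0525 and 0.178), whereas DESeq2 called both (0.00286 and 0.0332). In MYC2-FLAG −BFO shoots UGT76B1 had 4, 9 and 5 counts under LP, against 9, 40 and 9 under NC. It was called lower at −1.78 ± 0.58 (adjusted p = 0.0104, background 18.9%), a value of −0.56 without replicate 2 of the NC group.

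Averaged over BFO states, the response to LP in shoots was higher in myc2-3 than in MYC2-FLAG for ALD1, FMO1 and UGT76B1, 3 of 5 members against a background of 18.2%. For UGT76B1 the difference was 5.73 ± 0.77 (adjusted p = 3.23e-08) and was kept without any one library, at 5.05 without the library that stood apart. For ALD1 (adjusted p = 0.00385) and FMO1 (adjusted p = 0.00104) it was lost without replicate 2 of myc2-3 LP −BFO, and since groups at 0 enter both, their fitted sizes depend on the prior count. DIR1 in MYC2-FLAG shoots was higher under LP, with 36.4, 41.4 and 54.3 CPM, than under NC, with 22.9, 21.8 and 22.2 CPM, in the −BFO plants, and 0.98 ± 0.26 (adjusted p = 0.00159) stood just under the limit of a call, which it passed without replicate 1 (1.10) or 2 (1.03) of LP or replicate 1 of NC, and in DESeq2 (1.05). In roots no member was called for a difference between the lines in the response to LP, where 0.318% of genes were. The unadjusted count under 0.05 there was 1 member, FMO1 at 1.08 ± 0.29 (adjusted p = 0.0682), and limma-voom called it while DESeq2 called none.

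The other genes of the pathway, 34 in 5 lists of which 33 were tested, were also called between the lines. In roots under NC −BFO, 2 were called higher and 11 lower in myc2-3, with a median log2 fold change of −0.44, against a median of 0.02 over all tested genes, of which 11.3% were called. Under NC +BFO, 9 were higher and 3 lower with a median of 0.34 (12.0% of all genes called). Under LP, 4 were higher and 9 lower without BFO (median −0.43, 17.4% of all genes called), and 7 higher and 3 lower with BFO (median 0.36, 14.6%). In shoots, 8 were higher and 3 lower under LP +BFO (median 0.52, 19.3% of all genes called), 5 higher and 9 lower under NC −BFO (−0.16, 16.4%), and 2 higher and 1 lower under both NC +BFO (0.13, 3.86%) and LP −BFO (0.29, 3.64%). These are counts and medians of lists chosen with earlier results known, and no test of the lists was run.

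Among the regulators, SARD1, a transcription factor that activates SAR genes, was called in the same root comparisons and directions as ALD1. It averaged 30.8 ± 2.19 CPM in myc2-3 LP +BFO roots and 3.05 ± 0.842 CPM in MYC2-FLAG LP +BFO roots (SD, n = 3 each). Without BFO it averaged 3.46 ± 1.23 CPM in myc2-3 LP roots and 40.1 ± 3.34 CPM in MYC2-FLAG LP roots. The corresponding log2 fold changes between the lines were 3.32 and −3.56 under LP and 2.39 and −3.65 under NC, all called. CBP60G, its close homologue, took another course. It averaged 228 ± 36.5 CPM in myc2-3 LP −BFO roots and 80.7 ± 7.57 CPM in MYC2-FLAG LP −BFO roots, and was called higher in myc2-3 under LP −BFO (log2 1.49) and lower under NC −BFO (−1.68). These were also the conditions in which FMO1 stood highest and lowest in myc2-3 roots. In shoots SARD1 was called between the lines under NC −BFO only (−2.21), and CBP60G in no shoot comparison of the lines.

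The salicylic acid receptors NPR3 and NPR4 and the immune regulator PAD4 were each called in 4 of the 8 comparisons of the lines. NPR3 was called in the 4 root comparisons, with 2.68 (LP +BFO), −2.59 (LP −BFO), 2.33 (NC +BFO) and −2.71 (NC −BFO). PAD4 had 1.82, −1.13, 1.72 and −1.72 in the same order. NPR4 was called in roots under NC only (1.03 with BFO and −1.34 without) and in shoots under LP +BFO (−1.05) and NC −BFO (1.15). PAD4 and NPR3 thus had the signs of SARD1 and ALD1 in all 4 root comparisons.

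In salicylic acid metabolism, 3 enzymes that convert salicylic acid were called in roots and the synthase of the main route was not. The other listed genes of synthesis and turnover did not divide in this way. EDS5 was called in 2 of the 8 comparisons of the lines, PBS3 and EPS1 in 3 each and UGT74F1 in 1. MES9 was called in none, and BSMT1 was not tested. The hydroxylases DMR6 and DLO1 and the glucosyltransferase UGT74F2 were called in all 4 root comparisons of the lines, higher in myc2-3 with BFO and lower without. UGT74F2 had log2 fold changes of 2.86 (LP +BFO), −3.58 (LP −BFO), 1.84 (NC +BFO) and −2.29 (NC −BFO). DLO1 had 2.93, −3.31, 3.67 and −4.07, and DMR6 had 1.60, −1.57, 2.24 and −2.37 in the same order. ICS1, the isochorismate synthase that starts salicylic acid synthesis, was called in none of the 8 comparisons of the lines. Its root values were −0.77 under LP +BFO (adjusted p = 0.00858) and 0.72 under LP −BFO (adjusted p = 0.0116), short of the 2-fold limit. In shoots UGT74F2 was called under NC −BFO (−1.29), DMR6 under NC −BFO (−1.10) and LP −BFO (1.34), and DLO1 in no comparison of the lines.

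LKR/SDH is the first enzyme of the route that breaks lysine down instead of turning it into pipecolic acid. In the root comparisons where it was called, it went opposite to ALD1. It was lower in myc2-3 under LP +BFO (−1.46) and higher under LP −BFO (1.51), and also higher under NC −BFO. Under NC +BFO, where ALD1 was called higher, LKR/SDH was not called. In shoots it was called lower under NC −BFO (−2.15) and higher under LP +BFO (1.56).

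Of the lipid-transfer proteins of long-distance signalling, AZI1 was called in 7 of the 8 comparisons of the lines. In shoots under LP +BFO it averaged 525 ± 23.9 CPM in myc2-3 and 74.1 ± 19.2 CPM in MYC2-FLAG (log2 2.82). In the other shoot comparisons it was lower in myc2-3, by −3.13 under NC −BFO, −1.32 under NC +BFO and −1.86 under LP −BFO. EARLI1, a closely related protein whose reads the counting could in part have exchanged with those of AZI1, was called at 4.68 under LP +BFO and −4.76 under NC −BFO in shoots, and at −4.07 (LP −BFO) and −3.77 (NC +BFO) in roots. In roots AZI1 was called lower in myc2-3 under LP −BFO (−5.47), NC +BFO (−4.45) and NC −BFO (−1.199). AT5G48490, next to DIR1, was called higher in myc2-3 shoots under NC −BFO (1.69) and NC +BFO (1.98). AT5G03350, a lectin-family gene, was called higher in myc2-3 shoots under NC −BFO (2.35) and NC +BFO (1.11). It was also called in all 4 root comparisons, but not in the same direction in all of them. In roots it had 129 counts in myc2-3 and 1 in MYC2-FLAG under LP +BFO, a ratio of 146 (exact 95% counting interval 25.8 to 5826). Under NC −BFO it had 0 counts in myc2-3 and 38 in MYC2-FLAG and was at least 11.3-fold lower.

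The pathogenesis-related genes PR1 and PR2, outputs of salicylic acid signalling, were read with more counts in shoots than ALD1 and FMO1. PR1 had 1430 counts over 3 libraries in myc2-3 shoots under LP +BFO and 78 in MYC2-FLAG shoots, and was called higher (log2 4.04, adjusted p = 0.000195). Under NC −BFO it had 22 counts in myc2-3 and 306 in MYC2-FLAG and was called lower (−3.72, adjusted p = 0.0132). It was also called higher in myc2-3 under LP −BFO (3.79, adjusted p = 0.00491), with 32, 702 and 5 counts in myc2-3 and 25, 15 and 15 in MYC2-FLAG. Its high value is that of the library that stood apart, and the other myc2-3 libraries overlapped with MYC2-FLAG. PR2 was called higher in myc2-3 shoots under LP +BFO (2.07) and had −0.56 under NC −BFO, not called (adjusted p = 0.451). PR5, named after its values were seen, was called higher in shoots under LP +BFO (1.40). PR2 was called in roots higher without BFO and lower with BFO, opposite in sign to ALD1. In roots under LP −BFO it had 170 counts in myc2-3 and 2 in MYC2-FLAG, a ratio of 77.7 (interval 21.2 to 647), and under LP +BFO 17 and 127 counts (log2 −2.69).

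The 5 members differed in how they went together. Over the 8 root conditions, condition means of log2 CPM correlated at 0.98 for ALD1 with SARD4, 0.94 for ALD1 with UGT76B1 and 0.95 for SARD4 with UGT76B1, and at 0.04, 0.08 and −0.08 for FMO1 with these 3 genes. DIR1 was at −0.40 with ALD1 and −0.03 with FMO1. Over the 8 shoot conditions FMO1 was at 0.97 with ALD1, 0.93 with UGT76B1, 0.75 with SARD4 and −0.57 with DIR1, where the values of ALD1, FMO1 and UGT76B1 rest on few counts. These correlations share libraries and normalization, are a description of 8 points each, and carry no p.

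Over all 16 conditions, 19234 genes with a mean of at least 10 counts per library were compared with each member. Those most like ALD1 by Pearson correlation were AT3G07600 (0.99), WRKY59 (0.98) and ABCC7 (0.98). For SARD4 they were NIP1;2, AT1G13750 and ARD3 (all 0.94). For FMO1 they were AT3G45330, GLP9 and WRKY31 (all 0.99). For UGT76B1 they were UGT73D1, HMT-1 and AT5G06750 (all 0.98), and for DIR1 NPQ7, AT1G12330 and PTAC18 (all 0.98). The difference between shoots and roots enters all of these values, and Spearman correlation kept 1 of the 3 genes for SARD4 and none for the other members.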

How the data were processed

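RNA-seq of 48 libraries (16 conditions, 3 replicates each) was analysed. The authors mapped single-end reads to TAIR10 with TopHat2 and deposited raw counts per gene made with HTSeq on the reverse strand over exons, one table per line. Both tables were joined over 32678 gene identifiers, 5 summary lines were left out, and 0 libraries had identical values. The 21098 genes whose counts summed to over 100 were fitted with edgeR 4.0.16 in R 4.3.3 (TMM, 1 mean per condition over all 48 libraries, quasi-likelihood test, Benjamini-Hochberg adjustment). Calls required a size of 1 or more on the log2 scale with adjusted p below 0.05. SE is the log2 fold change divided by the root of F. CPM were TMM-scaled, and log2 CPM used a prior count of 2. Groups at 0 were given 3 counts, and ratios with 1 to 3 counts carry exact 95% intervals, which cover counting error only. Alternatives were DESeq2 size factors, no filter, filterByExpr, the legacy fit, glmTreat, a replicate block, fits by tissue, limma-voom (limma 3.58.1), DESeq2 1.42.0 and each library left out. The test was tested on simulated data. All 5 members are described. Of the other pathway genes, values are given for SARD1, CBP60G, ICS1, PR1 and AT5G48490 and for those called in at least 4 of the 8 comparisons of the lines, and for each member the 3 genes with the highest Pearson correlation. The members and lists were chosen with earlier results of these data known. RefSeq annotation (TAIR10.1) gave chromosomes, symbols and exon lengths. Sequences are the 300 bases before the annotated start in the same RefSeq assembly, searched on both strands.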

Additional observations from a re-analysis of the deposited data

Results flagged for a closer look

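The values here are differences between 2 responses on the log2 scale that passed the interaction test in edgeR (quasi-likelihood, Benjamini-Hochberg adjusted) over the 48 libraries. The response to BFO in myc2-3 minus that in MYC2-FLAG was, in roots under LP, 6.69 for UGT76B1 (adjusted p = 1.04e-20), 5.06 for ALD1 (1.03e-09), 3.20 for SARD4 (8.36e-10), −1.44 for FMO1 (0.00261) and −3.42 for DIR1 (0.000177). In roots under NC it was 4.99 for UGT76B1 (6.5e-17), 6.35 for ALD1 (4.31e-12), 3.42 for SARD4 (1.38e-10) and 1.28 for FMO1 (0.013). In shoots it was 4.75 for UGT76B1 under LP (0.00923) and 3.08 under NC (0.0182). Of all tested genes, 34.1% were called for this difference in roots under LP and 25.2% under NC. In shoots the shares were 15.8% under LP and 11.1% under NC. Of genes called for BFO in the roots of both lines, 97.6% under LP and 99.8% under NC went in opposite directions. These values have to be read with the remark on the labels above.

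The response to LP in myc2-3 minus that in MYC2-FLAG, averaged over BFO states, was in shoots 5.73 for UGT76B1 (adjusted p = 3.23e-08), 7.64 for ALD1 (0.00385) and 7.53 for FMO1 (0.00104). For this difference 18.2% of all tested genes were called. The ALD1 and FMO1 values depend on the prior count, since groups at 0 enter them, and without replicate 2 of myc2-3 LP −BFO shoots they were 4.60 and 5.19 and not called. The response to BFO under LP minus that under NC was −2.23 for FMO1 in myc2-3 roots (0.000149), 1.13 for UGT76B1 in myc2-3 roots (0.00554) and −4.44 for UGT76B1 in MYC2-FLAG shoots (0.0135). For this difference 12.9% of all genes were called in myc2-3 roots and 17.5% in MYC2-FLAG shoots. The last value rests on 1 count in the LP +BFO group. It was −4.14 and not called without replicate 2 of the LP −BFO group, and −6.75 without replicate 1 of the LP +BFO group.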

How the results depend on the processing

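Of 71 calls over 36 comparisons, 48 were kept under every named setting, 64 under all but glmTreat, and 45 also with each library left out. Over 1610 values from named settings and 1680 with 1 library left out, no call changed sign. Counts of member calls changed by over 1.5 times in these cases. With glmTreat against a 2-fold null, calls in shoots were 1 for BFO (5 in the reported fit), 2 for light (5), 0 for BFO by light (1) and 0 for BFO by line (2), and in roots 1 for light (3) and 1 for BFO by light (2). With DESeq2, shoot calls were 8 for line (4), 8 for BFO, 8 for light and 3 for BFO by light. With separate fits by tissue they were 3 for BFO and 1 for BFO by line in shoots, and 1 for light by line in roots (0). With limma-voom they were 2 for BFO by light in shoots and 1 for light by line in roots. The cause of these changes was not tested, except that glmTreat tests a stricter null by construction.

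With 1 library left out, shoot calls ranged from 3 to 5 for line, 3 to 6 for BFO, 4 to 6 for light, 0 to 2 for BFO by light, 1 to 2 for BFO by line and 1 to 3 for light by line. In roots they ranged from 14 to 15, 13 to 16, 2 to 4, 2 to 3, 9 to 9 and 0 to 1 in the same order. Replicate numbers did not in general pair the samples within a tissue. In 0 of 24 comparisons of line, BFO or light did all 3 same-numbered pairs correlate above 0.1 (−0.24 to 0.45). For BFO in MYC2-FLAG shoots under NC the pairs were at 0.25, 0.45 and 0.055. Pairing of shoots with roots was not tested. A fit with the replicate block made 2 calls for BFO by light in shoots (1 without the block), lost 2 member calls and gained 2. Depth limits the shoot values of ALD1 and FMO1, which had 79 and 98 counts over 24 libraries.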
